A study of Macaca mulatta and Mus musculus with 5 samples.

Results

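The 6 genes XRCC5, XRCC6, PRKDC, DCLRE1C, XRCC4 and LIG4 encode the core of non-homologous end joining, the repair route that closes the breaks that V(D)J recombination makes in DNA. They were chosen by symbol, in title case for mouse, and all 6 were listed among the 14949 genes of the macaque tables and the 31017 genes of the mouse table. Single-cell RNA was counted in meninges and spleen of female Chinese rhesus macaques aged 4 to 8 years, with 2 channels of a 10x 3′ instrument run per tissue, and in meninges of male C57BL/6 mice, with 1 library pooled from ages 2, 21 and 48 days. Mouse cells carried hashtag antibodies, but no map from cell to age was used here, so the mouse library was 1 sample. No genotype beyond the strain and no treatment is stated for either species. About 8000 macaque or 30000 mouse cells were loaded in each channel after a sort written CD45–CD11b–CD3– in macaque and CD45–CD11b– in mouse. The meaning of the dashes could not be settled, and cells with the T cell gene CD3E were present in all macaque channels. The labels do not say whether channels hold different animals. P-values between tissues within a group of cells therefore measure only the spread between channels. Those between groups of cells, and of the interaction, measure only the spread left in 1 joint fit with the channel as a block. Both spreads may be technical.

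In V(D)J recombination the RAG1 and RAG2 proteins cut beside antigen receptor gene segments and leave hairpin ends on the coding side. The ring of XRCC6 (Ku70) and XRCC5 (Ku80) slides onto the ends and brings in the kinase DNA-PKcs, the product of PRKDC. DNA-PKcs activates Artemis, the nuclease made from DCLRE1C, which opens the hairpins, and the scaffold XRCC4 holds DNA ligase IV, the product of LIG4, which seals the joint. Loss of any of these proteins blocks lymphocyte development to some degree in mouse, and the same proteins join breaks of other origin in every dividing or resting cell.

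Cells were grouped by transcripts. RAG-positive cells had at least 1 UMI of RAG1 or RAG2 and none of the cycling gene MKI67, and stood outside clusters named for other lineages. Cycling B-lineage cells lay in B-lineage clusters, had an MKI67 UMI and no RAG UMI. Mature B-like and T/NK-like cells came from clusters named by markers, and both lacked MKI67 UMIs. Marker genes alone gave these names, hence "-like". In macaque meninges 206 and 184 cells were RAG-positive, 93 and 90 cycling B-lineage, 1531 and 1613 T/NK-like, 109 and 106 cycling T/NK-like and 348 and 363 mature B-like. Spleen had no RAG-positive group, and its channels held 334 and 419 cycling B-lineage, 446 and 575 T/NK-like, 50 and 57 cycling T/NK-like and 3538 and 3785 mature B-like cells. RAG1 UMIs were found in 79.6 and 83.7% of RAG-positive cells and in 0% of mature B-like cells, as the grouping requires. The B cell gene MS4A1, one of the markers that named the mature B-like clusters, was found in 7.77 and 12.0% of RAG-positive cells and in 93.7 and 93.9% of meningeal mature B-like cells. T/NK-like cells had CD3E UMIs in 57.1 and 55.9% of cells in meninges and in 33.0 and 37.0% in spleen.

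The meningeal channels held 4073 and 4313 barcodes with medians of 4096 and 4034 UMIs, the spleen channels 5840 and 6786 with medians of 2397 and 2665.5, and the mouse library 13947 with a median of 6309. Library pairs shared 4 to 11 barcodes. The named mature B-like cells were a minority of meningeal cells with MS4A1. The unnamed clusters 0 (435 and 470 cells in meninges, 7 and 8 in spleen) and 3 (546 and 614 in meninges, 10 and 11 in spleen) had MS4A1 in 97.0 and 95.3% of cells and were nearly all meningeal, and cluster 12 was a further unnamed B cluster. Results against mature B-like cells are therefore given also with these clusters added wherever this ends a call or turns a direction. Cluster 11, counted as mature B-like, had a median of only 742 UMIs per cell and held 70 and 90 meningeal against 1877 and 1144 spleen cells.

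LIG4 set RAG-positive cells apart most. The ligase was 5.62-fold higher in RAG-positive than in mature B-like meningeal cells, while PRKDC and XRCC4 were lower, and the Ku genes and DCLRE1C did not pass the threshold, although some alternatives changed this. Of the 6 genes 1 was higher and 2 were lower past an adjusted p of 0.05 in edgeR's quasi-likelihood test, where 21.2% of the 9319 genes tested were higher and 17.7% lower (28.9 and 12.7% when scaled by library totals). Fitted differences use trimmed-mean scaling, which takes the middle of all genes as level and moved all differences here by a median of -0.23 on the log2 scale compared with library totals, so a fitted difference is not the ratio of the CPM values beside it. RAG transcripts gated the group, but none of the 6 genes did.

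Among the genes of end binding, XRCC5 was at 323.1 and 312.7 CPM (the gene's UMIs as a share of all UMIs in the summed cells, on the usual CPM scale) in the 2 RAG-positive channels and at 237.1 and 220.0 CPM in the mature B-like channels. XRCC6 was at 284.4 and 280.5 CPM in RAG-positive and at 194.5 and 218.1 CPM in mature B-like cells. Both Ku genes were higher in both RAG-positive channels, yet with log2 differences of 0.25 (edgeR adjusted p = 0.0999) and 0.23 (edgeR adjusted p = 0.159) neither passed. Scaled by library totals, as CPM are, both were higher past the threshold, XRCC5 by 0.48 (edgeR adjusted p = 0.000647) and XRCC6 by 0.46 (edgeR adjusted p = 0.00201). XRCC5 also passed after thinning every cell to 1000 UMIs (0.52, edgeR adjusted p = 0.0421). The kinase gene PRKDC was at 148.4 and 113.2 CPM in RAG-positive against 170.3 and 196.8 CPM in mature B-like cells, a log2 difference of -0.72 ± 0.15 (SE; edgeR adjusted p = 8.94e-05). The channels of the 2 groups did not overlap. DCLRE1C, the hairpin-opening nuclease, was at 24.7 and 28.7 CPM in RAG-positive and 31.8 and 34.8 CPM in mature B-like cells, and the log2 difference of -0.55 did not pass (edgeR adjusted p = 0.137). It passed when the early B-like clusters stood for the RAG-positive cells (-0.65, edgeR adjusted p = 0.0243), and it turned to 0.27 (edgeR adjusted p = 0.470) against mature B-like cells with the unnamed B clusters added, which had 18.6 and 18.8 CPM.

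Of the ligation complex, LIG4 was at 49.5 and 52.4 CPM in RAG-positive cells, from 32 and 31 UMIs, and at 8.90 and 6.45 CPM in mature B-like cells, from 14 and 10 UMIs. Both RAG-positive channels were far above both mature B-like channels, with a log2 difference of 2.49 ± 0.37 (SE; edgeR adjusted p = 4.58e-08). LIG4's partner XRCC4 went the other way, at 27.8 and 38.9 CPM in RAG-positive and 60.4 and 57.4 CPM in mature B-like cells (log2 difference -1.06 ± 0.25, edgeR adjusted p = 0.000361). The transcripts of the 2 proteins of the ligase complex thus differed in opposite directions between the same cells.

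LIG4 stayed past the threshold under all 16 alternatives, with log2 differences from 2.03 to 2.78. With the unnamed B clusters added to mature B-like cells LIG4 was 4.09-fold higher, XRCC4 no longer passed (edgeR adjusted p = 0.0563) and XRCC6 turned to a log2 difference of -0.27 (edgeR adjusted p = 0.0234). The call of PRKDC was lost without meninges channel 2 (log2 difference -0.44, edgeR adjusted p = 0.0962) and after thinning every cell to 1000 UMIs (adjusted p = 0.239), and that of XRCC4 without meninges channel 1 (log2 difference -0.79, edgeR adjusted p = 0.0790). Where a channel was left out, here and below, the lone channel of that tissue was assumed to vary like the 2 of the other tissue.

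At equal depth the share of cells with a LIG4 UMI was also higher in RAG-positive than in T/NK-like and mature B-like cells of meninges. Cycling groups are not part of this comparison of shares. T/NK-like and mature B-like cells changed places between the channels. After thinning every cell to 1000 UMIs, LIG4 was found in 6.06% (exact 95% interval 3.17 to 10.4) and 4.42% (1.93 to 8.52) of RAG-positive cells, in 1.48 and 0.426% of T/NK-like cells and in 0.678 and 1.05% of mature B-like cells of meninges. Unthinned, the shares were 10.7 and 13.0% of RAG-positive cells, 3.66 and 2.42% of T/NK-like cells and 3.74 and 2.20% of mature B-like cells, with median UMIs of 2834 and 2727, 3667 and 3641, and 4308 and 4368. Thinning left out 8 and 3 RAG-positive, 176 and 206 T/NK-like and 53 and 78 mature B-like cells. Intervals here and below cover counting error only.

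**Figure D1:**
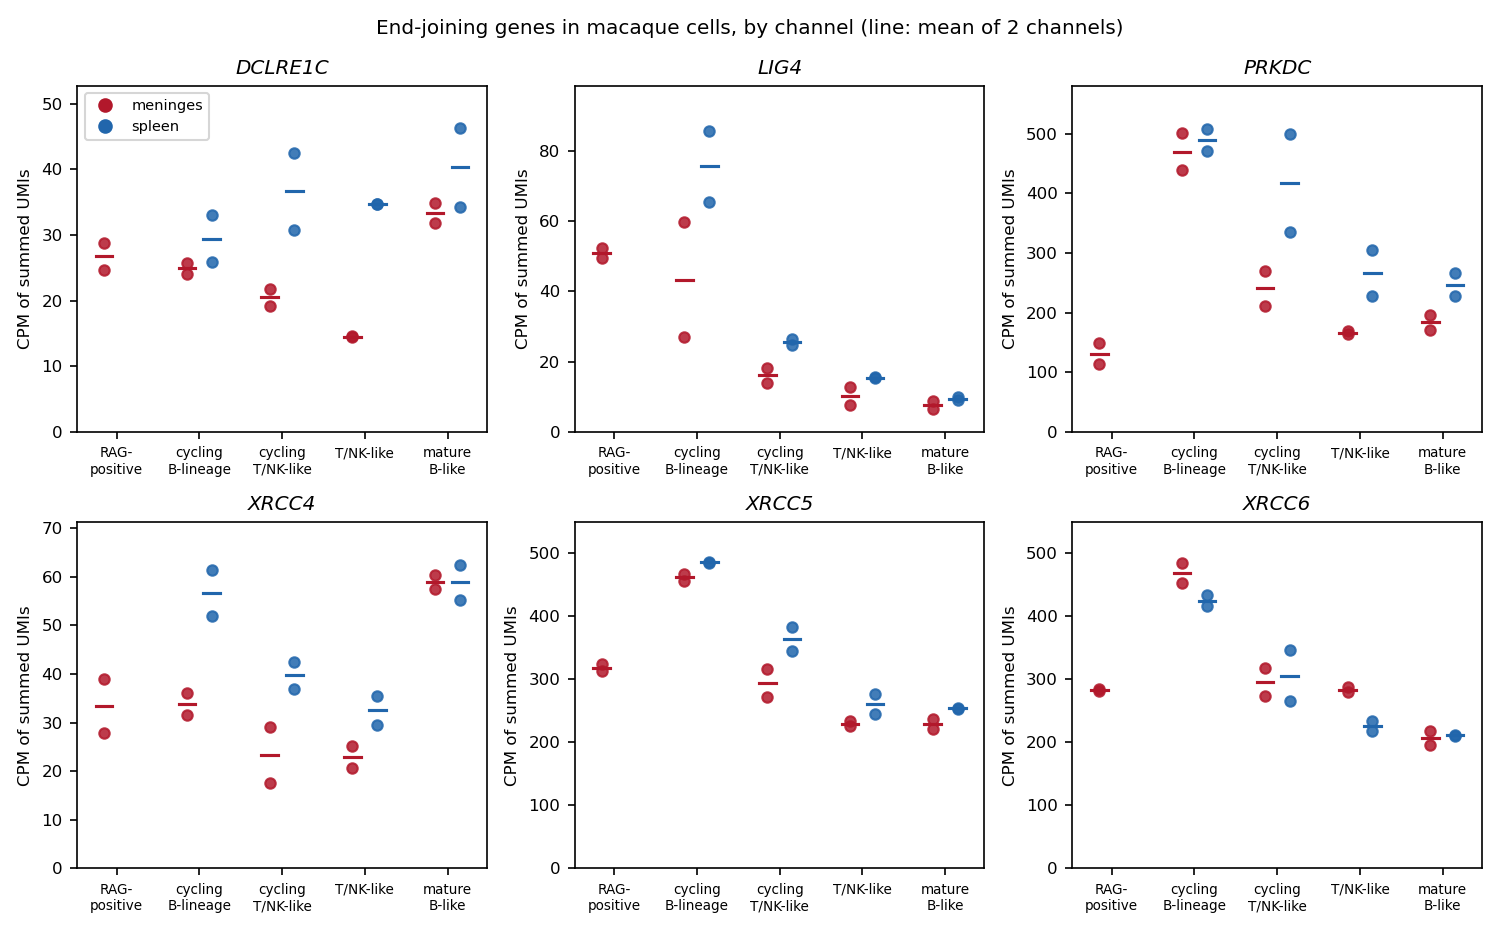
Level of each end-joining gene in CPM of summed UMIs (vertical axes, from 0) in RAG-positive, cycling B-lineage, cycling T/NK-like, T/NK-like and mature B-like macaque cells, with meningeal channels in red and spleen channels in blue and a line at the mean of the 2 channels. LIG4 stood at 49.5 and 52.4 CPM in RAG-positive cells against 8.90 and 6.45 CPM in meningeal mature B-like cells. Of the groups shown, cycling B-lineage cells had the highest mean PRKDC, XRCC5 and XRCC6. RAG-positive cells with MKI67, not shown, had XRCC5 at 545.4 and 501.7 CPM, above every cycling B-lineage channel. Their PRKDC (415.8 and 561.0 CPM) and XRCC6 (423.9 and 421.6 CPM) overlapped with cycling B-lineage cells.

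Cycling B-lineage cells had more LIG4, PRKDC, XRCC5 and XRCC6 than mature B-like cells in both tissues, so here the ligase, the kinase and both Ku genes were higher together. XRCC4 was lower past the threshold in meninges, and DCLRE1C in spleen. In meninges 4 of the 6 genes were higher and 1 lower, where 24.8% of genes tested were higher and 18.4% lower. In spleen 4 were higher and 1 lower, where 31.2% were higher and 32.3% lower. Cycling B-lineage cells were gated on MKI67.

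PRKDC was at 500.9 and 439.4 CPM in cycling B-lineage cells of meninges against 170.3 and 196.8 CPM in mature B-like cells, and at 507.7 and 471.9 against 266.0 and 228.1 CPM in spleen. Every cycling channel lay above every mature channel, with log2 differences of 1.23 ± 0.12 in meninges (SE; edgeR adjusted p = 9.48e-15) and 0.94 ± 0.09 in spleen (edgeR adjusted p = 3.90e-14). XRCC5 was at 466.6 and 454.6 CPM in cycling against 237.1 and 220.0 CPM in mature B-like cells of meninges, and at 484.6 and 484.0 against 254.6 and 252.1 CPM in spleen. XRCC6 was at 483.3 and 452.3 against 194.5 and 218.1 CPM in meninges, and at 432.0 and 415.5 against 209.5 and 211.8 CPM in spleen. No cycling channel of either Ku gene overlapped with a mature one. XRCC5 was 1.85-fold higher in meninges (edgeR adjusted p = 1.05e-10) and 1.84-fold in spleen (5.22e-14), and XRCC6 2.09-fold (5.15e-13) and 1.94-fold (7.59e-15).

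LIG4 was at 26.9 and 59.8 CPM in cycling B-lineage cells of meninges, from 29 and 51 UMIs, against 8.90 and 6.45 CPM in mature B-like cells. In spleen it was at 85.6 and 65.6 CPM in cycling cells, from 241 and 185 UMIs, against 9.06 and 9.81 CPM in mature B-like cells. LIG4 was the gene with the largest fold of the 6 in both tissues, at 4.95-fold in meninges (log2 difference 2.31 ± 0.35, edgeR adjusted p = 7.24e-08) and 7.63-fold in spleen (2.93 ± 0.17, edgeR adjusted p = 2.70e-26). The 2 meningeal cycling channels differed from each other more than the spleen channels did, and the log2 difference was 3.085 without meninges channel 1 and 1.465 without channel 2. Germinal centre B-like cells with MKI67, only 31 and 29 in meninges, had 19 and 41 LIG4 UMIs. XRCC4 was at 36.2 and 31.6 CPM in cycling against 60.4 and 57.4 CPM in mature B-like cells of meninges (log2 difference -0.91 ± 0.22, edgeR adjusted p = 0.000337), and at 51.9 and 61.3 against 62.5 and 55.3 CPM in spleen, where the channels overlapped (edgeR adjusted p = 0.379). DCLRE1C was at 24.1 and 25.8 against 31.8 and 34.8 CPM in meninges (log2 difference -0.54, edgeR adjusted p = 0.0876) and at 33.0 and 25.9 against 46.3 and 34.3 CPM in spleen (log2 difference -0.50 ± 0.15, edgeR adjusted p = 0.00226).

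With the unnamed B clusters added, the meningeal cycling B-lineage cells still had log2 differences of 1.85 for LIG4, 1.52 for PRKDC, 0.69 for XRCC5 and 0.56 for XRCC6, all past the threshold. XRCC4 then no longer passed (edgeR adjusted p = 0.0926), and DCLRE1C turned to 0.27 (edgeR adjusted p = 0.359). With a gate of 2 UMIs the lower DCLRE1C of meninges passed (-0.63, edgeR adjusted p = 0.0488). The lower DCLRE1C of spleen was lost without spleen channel 1 (edgeR adjusted p = 0.0687) and turned to a log2 difference of 0.10 after thinning (adjusted p = 0.826). After thinning the higher XRCC6 of meninges missed the threshold at a log2 difference of 0.56 (adjusted p = 0.0771). Early B-like cluster 4 gave 46.2 and 41.1% of the meningeal cycling B-lineage cells, while germinal centre B-like clusters 17 and 2 together gave most of those of spleen.

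**Figure D2:**
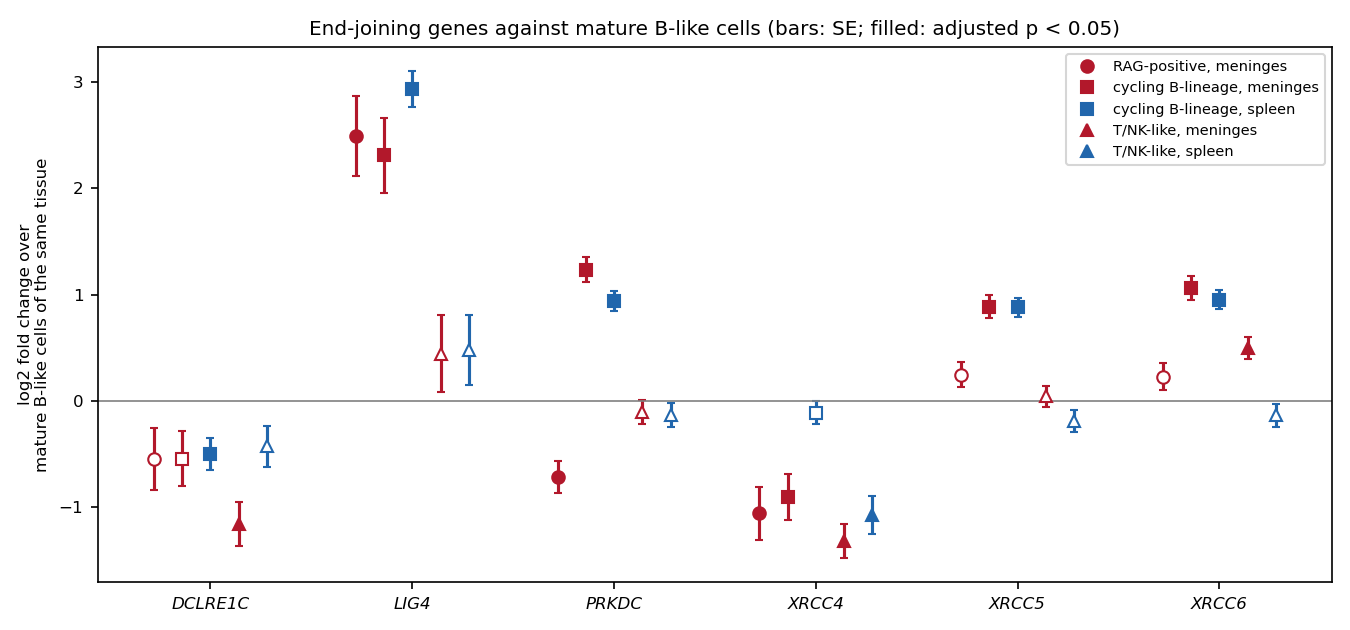
Log2 fold change of each end-joining gene (vertical axis, with bars of 1 SE) over mature B-like cells of the same tissue, for RAG-positive, cycling B-lineage and T/NK-like macaque cells, with filled symbols for an adjusted p under 0.05 under trimmed-mean scaling. LIG4 was past the threshold in RAG-positive (2.49) and in cycling B-lineage cells of meninges (2.31) and spleen (2.93), and in T/NK-like cells of neither tissue.

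The split by MKI67 ran in opposite directions for LIG4 in early B-like and germinal centre B-like clusters. This was seen after the levels were known, so it is given as a description with no test. In the meningeal early B-like cluster LIG4 was at 16.4 and 21.1 CPM in the 69 and 53 cells with an MKI67 UMI, with exact 95% Poisson intervals of 9.20 to 27.1 and 11.2 to 36.1 CPM. It was at 51.1 and 52.5 CPM in the 426 and 420 cells without one, with intervals of 39.6 to 64.8 and 40.6 to 66.8 CPM. The cells without MKI67 were higher in both channels, and the intervals did not overlap.

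Germinal centre B cells mutate and switch their antibody genes. Among cells like them LIG4 was at 56.7 and 146.0 CPM in meningeal cells with an MKI67 UMI and at 14.9 and 28.2 CPM in those without. In spleen it was at 91.3 and 69.6 CPM with and at 29.7 and 28.3 CPM without. Here the cells with MKI67 were higher in all 4 channels. The meningeal values rest on only 31 and 29 cells with and 48 and 59 without, those of spleen on 288 and 385 with and 611 and 790 without.

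PRKDC did not share this split. It was at 526.1 and 545.7 CPM in early B-like cells with MKI67 and 134.9 and 131.3 CPM in those without, and at 513.2 and 491.5 against 220.0 and 231.8 CPM in meningeal germinal centre B-like cells. In spleen germinal centre B-like cells it was at 532.0 and 479.2 CPM with MKI67 and 308.5 and 272.1 CPM without. The kinase gene was therefore higher with MKI67 in both kinds of cluster. XRCC5 was at 530.5 and 537.6 against 318.5 and 274.5 CPM, and XRCC6 at 500.9 and 498.6 against 282.7 and 278.5 CPM, in early B-like cells with and without MKI67. Both Ku genes were higher with MKI67 there, as was PRKDC. Of the RAG-positive cells of meninges, the 32 and 24 with an MKI67 UMI, which held 370404 and 287010 UMIs against 646908 and 591714 in the 206 and 184 without and so were deeper per cell, had LIG4 at 18.9 and 17.4 CPM and PRKDC at 415.8 and 561.0 CPM, against 49.5 and 52.4 CPM and 148.4 and 113.2 CPM in those without. Early B-like cluster 4 held 81.2 and 66.7% of those with MKI67 against 95.6 and 90.8% of those without, and unnamed cluster 14 held 18.8 and 33.3% of those with it, so the 2 sets differed in clusters as well. Neither DCLRE1C (21.9 and 21.1 against 25.9 and 23.1 CPM) nor XRCC4 (31.8 and 35.7 against 28.2 and 35.0 CPM) showed a large split in early B-like cells.

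**Figure D3:**
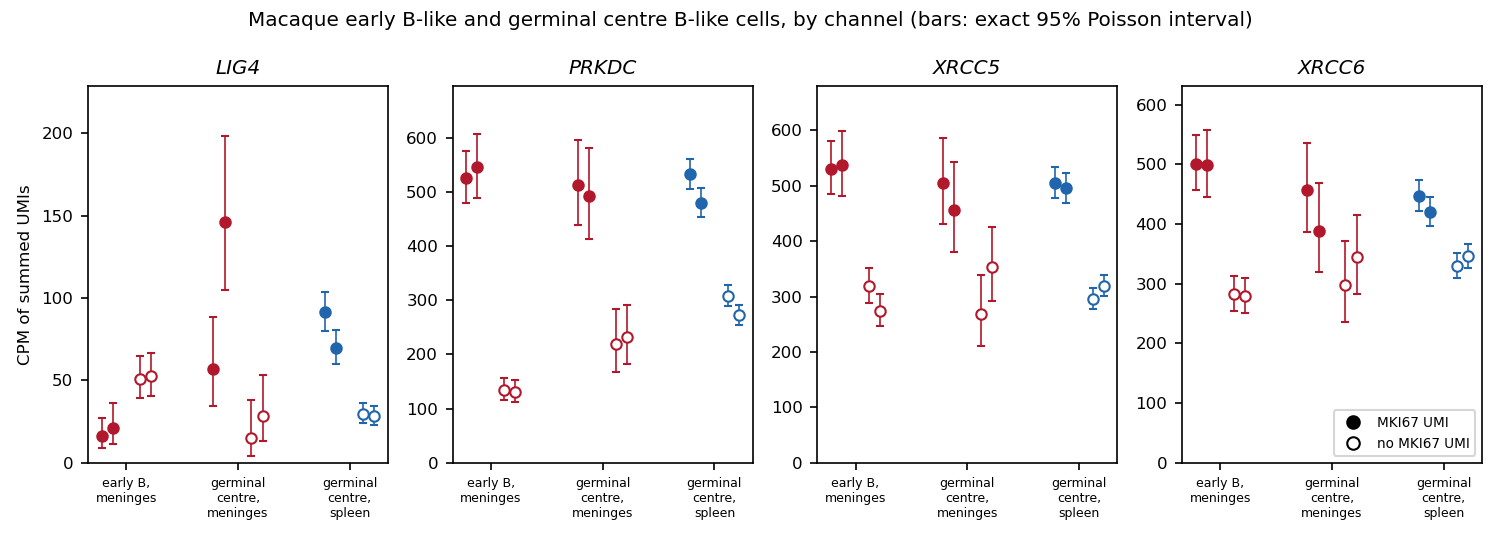
CPM of LIG4, PRKDC, XRCC5 and XRCC6 (vertical axes, with exact 95% Poisson intervals) in macaque cells with an MKI67 UMI (filled) and without (open), by channel, in early B-like cells of meninges and germinal centre B-like cells of meninges (red) and spleen (blue). LIG4 was lower with MKI67 in early B-like cells (16.4 and 21.1 against 51.1 and 52.5 CPM) and higher with MKI67 in spleen germinal centre B-like cells (91.3 and 69.6 against 29.7 and 28.3 CPM), while PRKDC was higher with MKI67 in all 3.

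T/NK-like cells, which include cells that do not rearrange receptor genes, had less XRCC4 than mature B-like cells in both tissues, less DCLRE1C and more XRCC6 in meninges, and a LIG4 level that did not pass. In meninges 1 of the 6 genes was higher and 2 were lower, where 30.2% of genes tested were higher and 23.1% lower. In spleen 1 was lower, where 22.7% of genes were and 22.5% were higher (14.4 and 32.1% when scaled by library totals).

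XRCC4 was at 20.6 and 25.3 CPM in T/NK-like cells against 60.4 and 57.4 CPM in mature B-like cells of meninges, and at 29.6 and 35.6 against 62.5 and 55.3 CPM in spleen. All 4 T/NK-like channels were below all 4 mature B-like channels, with log2 differences of -1.32 ± 0.16 (SE; edgeR adjusted p = 4.53e-11) and -1.07 ± 0.18 (edgeR adjusted p = 3.38e-07). DCLRE1C was at 14.5 and 14.5 against 31.8 and 34.8 CPM in meninges (-1.16 ± 0.21, edgeR adjusted p = 1.43e-06) and at 34.7 and 34.7 against 46.3 and 34.3 CPM in spleen, where the channels overlapped (edgeR adjusted p = 0.0588). The spleen value passed without meninges channel 1 (adjusted p = 0.0393) or channel 2 (adjusted p = 0.0375), which share the fit, and without a filter on low counts (adjusted p = 0.0298). XRCC6 was at 286.8 and 279.0 against 194.5 and 218.1 CPM in meninges, 1.41-fold higher (edgeR adjusted p = 3.57e-05), and at 217.4 and 232.5 against 209.5 and 211.8 CPM in spleen, where the log2 difference was -0.14 (edgeR adjusted p = 0.325) and 0.10 when scaled by library totals (adjusted p = 0.479). Trimmed-mean scaling moved all genes of that contrast by a median of -0.23.

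LIG4 was at 12.7 and 7.78 CPM in T/NK-like against 8.90 and 6.45 CPM in mature B-like cells of meninges, and at 15.3 and 15.6 against 9.06 and 9.81 CPM in spleen (edgeR adjusted p = 0.313 and 0.244). PRKDC was at 168.8 and 163.6 against 170.3 and 196.8 CPM in meninges and at 305.2 and 227.3 against 266.0 and 228.1 CPM in spleen (edgeR adjusted p = 0.445 and 0.337), and XRCC5 was at 225.1 and 232.8 against 237.1 and 220.0 CPM and at 245.0 and 275.9 against 254.6 and 252.1 CPM (edgeR adjusted p = 0.755 and 0.129). The T/NK-like and mature B-like channels overlapped for XRCC5 in both tissues, for LIG4 in meninges and for PRKDC in spleen, while both spleen T/NK-like channels were above the mature B-like ones for LIG4 and both meningeal ones below for PRKDC. The meningeal XRCC6 result depended on which cells stood for mature B: with the unnamed B clusters added its log2 difference was 0.00 (edgeR adjusted p = 0.968), that of PRKDC was 0.18 (adjusted p = 0.0320) and that of XRCC5 -0.15 (adjusted p = 0.0333), while XRCC4 (-0.81, adjusted p = 3.18e-08) and DCLRE1C (-0.34, adjusted p = 0.0453) stayed lower. Without the low-UMI cluster 11, T/NK-like cells of spleen had lower XRCC6 (-0.35, adjusted p = 0.00524) and XRCC5 (-0.27, adjusted p = 0.0289), and XRCC5 was also lower without a filter on low counts (-0.29, adjusted p = 0.0233). After thinning, the meningeal XRCC6 difference was 0.27 (adjusted p = 0.130).

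Cycling T/NK-like cells were also compared with other T/NK-like cells of the same tissue. In meninges none of the 6 passed edgeR's test, where 11.4% of genes did in either direction, although PRKDC was at 270.6 and 211.2 against 168.8 and 163.6 CPM (log2 difference 0.35, edgeR adjusted p = 0.0705, and 0.0366 without cluster 11). Scaled by library totals, PRKDC (0.53, adjusted p = 0.00259) and XRCC5 (0.35, adjusted p = 0.0283) were higher there, and 9.27% of genes were higher and 3.04% lower, against 5.10 and 6.35% with trimmed-mean scaling. In spleen PRKDC was higher, at 498.9 and 334.7 CPM in cycling against 305.2 and 227.3 CPM in other T/NK-like cells (log2 difference 0.57 ± 0.17, edgeR adjusted p = 0.0231), the only gene of the 6 to pass where 3.64% of genes were higher. The log2 difference stayed near this size without spleen channel 1 (0.48), without channel 2 (0.63) and without the channel block (0.57), though none of these passed (adjusted p = 0.389, 0.146 and 0.0556), and it was 0.03 after thinning (adjusted p = 0.995). XRCC5 was at 316.0 and 270.6 against 225.1 and 232.8 CPM in meninges and at 344.9 and 382.5 against 245.0 and 275.9 CPM in spleen without passing in either (edgeR adjusted p = 0.143 in spleen). LIG4, at 18.2 and 14.0 against 12.7 and 7.78 CPM in meninges, did not show in these cells the size of difference seen between cycling and mature B cells, though the 2 differences were not tested against each other.

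Between tissues, summed over all cells, DCLRE1C, XRCC4, PRKDC and LIG4 were lower in meninges than in spleen, and the Ku genes did not pass. The 4 lower genes stood against 27.1% of the 12441 genes tested that were lower. DCLRE1C was at 17.1 and 15.8 CPM in meninges against 36.9 and 30.01 CPM in spleen (log2 difference -0.98 ± 0.09, edgeR adjusted p = 3.995e-05). XRCC4 was at 31.3 and 33.7 against 54.3 and 53.1 CPM (-0.68 ± 0.08, edgeR adjusted p = 0.00016). PRKDC was at 181.1 and 169.6 against 296.8 and 255.2 CPM (-0.61 ± 0.06, edgeR adjusted p = 7.84e-05). For these 3 genes every meningeal channel was below every spleen channel.

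LIG4 was at 15.04 and 15.95 CPM in meninges against 24.5 and 21.0 CPM in spleen (-0.51 ± 0.09, edgeR adjusted p = 0.00118), but after thinning the log2 difference was 0.00 (adjusted p = 0.996). XRCC5 was at 268.8 and 259.0 against 290.9 and 289.7 CPM (edgeR adjusted p = 0.199), and XRCC6 at 285.7 and 283.1 against 262.4 and 263.5 CPM (edgeR adjusted p = 0.0535), so both Ku genes were apart by channel without passing. XRCC5 passed without spleen channel 1 (-0.15, adjusted p = 0.0112), without cluster 11 (-0.14, adjusted p = 0.0200) and when scaled by library totals (-0.14, adjusted p = 0.0373), and XRCC6 without spleen channel 2 (0.20, adjusted p = 0.00302), without immunoglobulin genes (0.16, adjusted p = 0.0474) and without genes listed by identifier alone (0.15, adjusted p = 0.0411). In such sums a different mix of cells and a different amount of transcript per cell cannot be told apart. The low-UMI cluster 11, mostly of spleen, had DCLRE1C at 87.3 and 77.3, XRCC4 at 136.8 and 128.8 and PRKDC at 510.4 and 500.6 CPM in spleen. Without that cluster the all-cell log2 differences were -0.91 for DCLRE1C, -0.61 for XRCC4 and -0.60 for PRKDC.

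Within named mature B-like cells none of the 6 genes passed between tissues in edgeR's test, where 1.70% of the 9933 genes tested did in either direction (142 higher and 27 lower, and 91 and 4 with DESeq2). PRKDC came nearest, at 170.3 and 196.8 CPM in meninges against 266.0 and 228.1 CPM in spleen (log2 difference -0.36 ± 0.11, edgeR adjusted p = 0.0801), and it passed without spleen channel 1 (-0.30, adjusted p = 0.0372) or channel 2 (-0.43, adjusted p = 0.000155), fits in which the spread comes from the meningeal channels alone, with a crossed block (-0.36, adjusted p = 0.0336) and when scaled by library totals (-0.43, adjusted p = 0.0470). LIG4 was at 8.90 and 6.45 against 9.06 and 9.81 CPM and XRCC4 at 60.4 and 57.4 against 62.5 and 55.3 CPM. Once the unnamed B clusters were added, DCLRE1C was at 18.6 and 18.8 CPM in meninges against 43.6 and 34.7 CPM in spleen, PRKDC at 148.1 and 149.8 against 253.6 and 220.4 CPM, and XRCC4 at 39.7 and 42.2 against 60.9 and 56.5 CPM. These 3 were then lower (log2 differences -0.96, -0.57 and -0.42, edgeR adjusted p = 2.53e-05, 3.17e-05 and 0.00258), where 19.3% of genes were lower. XRCC6 was at 282.0 and 293.9 against 219.5 and 224.0 CPM and was higher (0.48, edgeR adjusted p = 0.00018), where 22.1% were higher.

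The levels of the unnamed meningeal clusters stand beside that difference. In cluster 0 DCLRE1C was at 13.0 and 15.5, XRCC4 at 35.0 and 41.2 and XRCC6 at 357.0 and 368.3 CPM in the meningeal channels, and in cluster 3 DCLRE1C was at 14.1 and 12.5, XRCC4 at 28.1 and 33.5 and XRCC6 at 274.7 and 278.9 CPM. Cluster 12, present in both tissues, had XRCC6 at 253.6 and 237.4 CPM in meninges and 256.5 and 274.9 CPM in spleen. Both meningeal channels of cluster 12 were thus below both spleen channels, opposite to the order over all these cells. Its DCLRE1C was at 26.8 and 27.1 CPM in meninges against 33.5 and 36.0 CPM in spleen and its XRCC4 at 51.5 and 40.7 against 52.9 and 62.0 CPM, both lower in the meningeal channels. Clusters 0 and 3 had 7 to 11 spleen cells a channel, too few for a comparison between tissues within them.

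T/NK-like cells differed between tissues in 3 of the 6 genes. XRCC6 was higher in meninges, where 19.4% of the 9490 genes tested were higher, and DCLRE1C and PRKDC were lower, where 15.2% were. With DESeq2 11.2% of genes were higher and 5.21% lower, and scaled by library totals 11.2 and 30.9%, with trimmed-mean differences a median of 0.27 (log2) above those scaled by totals. XRCC6 was at 286.8 and 279.0 CPM in meninges against 217.4 and 232.5 CPM in spleen (1.51-fold, log2 difference 0.59 ± 0.08, edgeR adjusted p = 3.59e-05). DCLRE1C was at 14.5 and 14.5 against 34.7 and 34.7 CPM (-0.99 ± 0.20, edgeR adjusted p = 0.00105), and PRKDC at 168.8 and 163.6 against 305.2 and 227.3 CPM (-0.40 ± 0.10, edgeR adjusted p = 0.00508). The channels of the tissues did not overlap for any of the 3. The PRKDC call was lost without spleen channel 1 (-0.21, adjusted p = 0.129), and DCLRE1C and XRCC6 passed under all 14 alternatives, XRCC6 at 0.33 when scaled by library totals.

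The 2 tissues filled the T/NK-like class from different clusters, with clusters 1 and 6 holding most meningeal cells (39.5 and 39.1%, and 42.3 and 41.9%) and clusters 13 and 6 most spleen cells (49.6 and 48.7%, and 39.5 and 40.7%). In cluster 6, which both tissues shared, DCLRE1C was at 21.3 and 16.7 CPM in meninges against 37.8 and 46.4 CPM in spleen, PRKDC at 207.1 and 198.7 against 312.9 and 261.7 CPM and XRCC6 at 275.9 and 287.1 against 261.6 and 242.7 CPM. The order of the tissues was the same there as in the class for all 3 genes, with a smaller gap for XRCC6. The 10 mature B markers listed summed to 82.9 and 94.4 CPM in T/NK-like cells of meninges and to 627.7 and 636.8 CPM in those of spleen, with CD40 at 0 in channel 1 of each tissue. MS4A1 UMIs were found in 7.77 and 7.75% against 22.4 and 23.7% of these cells. Mature B-like cells had 5865 and 5767 CPM of these markers in meninges and 6549 and 6127 CPM in spleen, and the part of such UMIs in the T/NK-like differences was not tested.

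The tissue difference of XRCC6 was larger in T/NK-like than in named mature B-like cells, by 0.63 ± 0.15 on the log2 scale (interaction term, edgeR adjusted p = 0.00114), where 11.6% of the 9319 genes had a positive interaction past the threshold and 4.67% a negative one (5.79 and 12.7% when scaled by library totals). That of DCLRE1C did not differ past it (-0.73, edgeR adjusted p = 0.0667), but did with the strict cell filter (-0.79, adjusted p = 0.0454) and without cluster 11 (-0.79, adjusted p = 0.0396), and XRCC5 passed without a filter on low counts (0.41, adjusted p = 0.0404). With the unnamed B clusters added the interaction of XRCC6 was 0.17 (adjusted p = 0.329), after thinning 0.47 (adjusted p = 0.128), and when scaled by library totals 0.36 (adjusted p = 0.0804), a scaling under which that of DCLRE1C passed (-1.001, adjusted p = 0.00803). XRCC6 was thus higher in meningeal T/NK-like cells, and the comparison with B cells turned on the scaling and on which B cells were taken.

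Among cycling B-lineage cells LIG4 and XRCC4, the pair that makes the ligase complex, were lower in meninges, where 12.1% of genes tested were lower. LIG4 was at 26.9 and 59.8 CPM in meninges against 85.6 and 65.6 CPM in spleen (log2 difference -0.88 ± 0.24, edgeR adjusted p = 0.0125), and XRCC4 at 36.2 and 31.6 against 51.9 and 61.3 CPM (-0.76 ± 0.20, edgeR adjusted p = 0.00935). Neither gene's channels overlapped between tissues. PRKDC, at 500.9 and 439.4 against 507.7 and 471.9 CPM, XRCC5, at 466.6 and 454.6 against 484.6 and 484.0 CPM, and XRCC6, at 483.3 and 452.3 against 432.0 and 415.5 CPM, did not pass.

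The sizes held in DESeq2 (-0.85 for LIG4 and -0.76 for XRCC4), but not the calls (adjusted p = 0.0887 and 0.149). That of LIG4 was lost without meninges channel 1 (-0.36, adjusted p = 0.256) or spleen channel 1 (-0.70, adjusted p = 0.0767) and that of XRCC4 without spleen channel 2 (-0.62, adjusted p = 0.0881), each with 1 channel left in that tissue, and both after thinning (0.08, adjusted p = 0.954, and -1.27, adjusted p = 0.180). The 9 early B markers listed summed to 1188 and 1051 CPM in the meningeal and 129.0 and 121.6 CPM in the spleen cycling cells. Of these markers, RAG1 and RAG2 were at 0 by the gate, and DNTT, ERG and MME were at 0 in all 4 channels. The 9 germinal centre markers summed to 440.6 and 405.4 CPM in meninges and 1025 and 992.1 CPM in spleen, with SERPINA9 at 0 in meninges. In early B-like cells with MKI67 LIG4 was at 16.4 and 21.1 CPM, and in germinal centre B-like cells with MKI67 at 56.7 and 146.0 CPM in meninges against 91.3 and 69.6 CPM in spleen, where the tissues overlapped. The part of the mix of stages in the tissue difference was not tested.

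In the other classes none of the 6 genes passed between tissues. In germinal centre B-like cells 0.308% of genes passed in either direction (27 higher and 1 lower, and 48 and 18 with DESeq2), and LIG4 was at 38.1 and 83.3 CPM in meninges against 57.7 and 46.4 CPM in spleen, XRCC5 at 399.4 and 401.7 against 391.2 and 396.7 CPM and XRCC6 at 386.2 and 365.0 against 383.3 and 378.8 CPM. Adjusted p-values of the 6 genes in edgeR's test lay between 0.666 and 0.957. In plasma-like cells, which secrete antibody, 6.85% of genes passed (5.85% higher and 0.999% lower, and 3.74 and 16.1% when scaled by library totals), and DCLRE1C came nearest at 5.07 and 3.33 CPM in meninges against 26.3 and 13.2 CPM in spleen (log2 difference -1.76 ± 0.54, edgeR adjusted p = 0.0869). It passed without spleen channel 2 (-2.17, adjusted p = 0.0359), without a filter on low counts (-1.79, adjusted p = 0.0112) and with channel number as a block (-1.75, adjusted p = 0.0223). Scaled by library totals DCLRE1C (-2.18, adjusted p = 0.0245), LIG4 (-1.40, adjusted p = 0.0370) and PRKDC (-0.88, adjusted p = 0.0150) were all lower in plasma-like cells of meninges. In cycling T/NK-like cells 7.35% of genes passed (258 higher and 124 lower, 111 and 23 with DESeq2, and 230 and 204 when scaled by library totals), and PRKDC was at 270.6 and 211.2 CPM in meninges against 498.9 and 334.7 CPM in spleen (-0.69, edgeR adjusted p = 0.0627), passing without spleen channel 2 (-0.90, adjusted p = 0.00172) with the block (adjusted p = 0.00904) and when scaled by library totals (-0.79, adjusted p = 0.0285). LIG4 was too low to be tested in the last class.

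**Figure D4:**
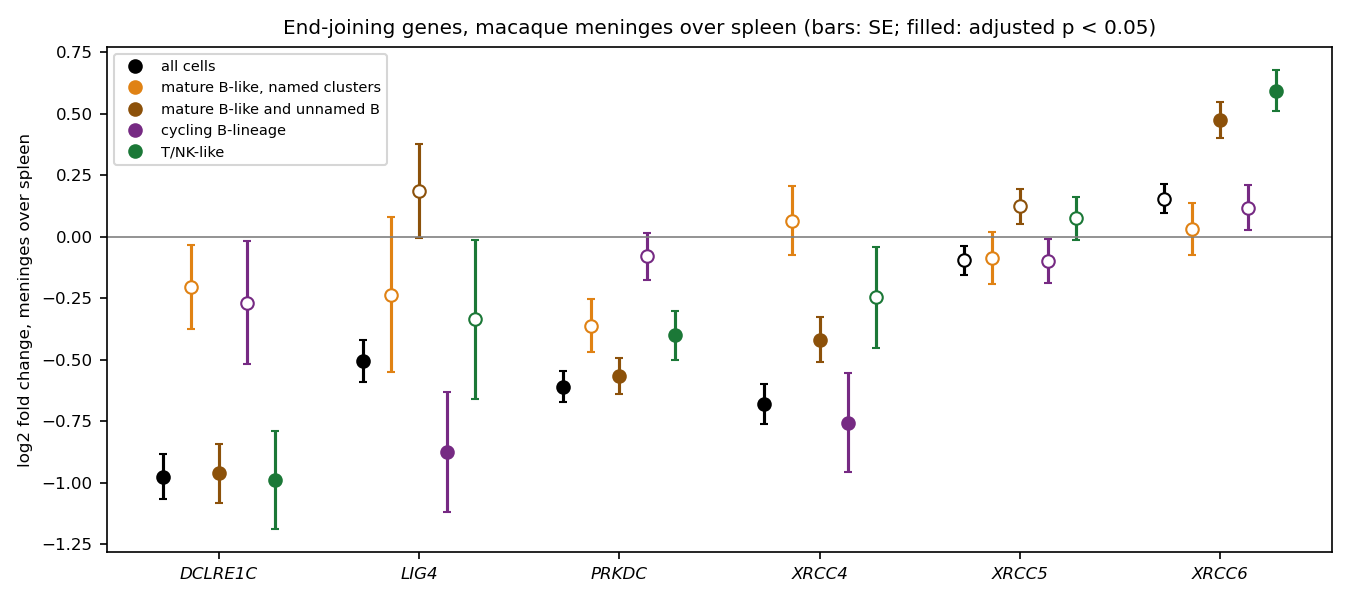
Log2 fold change of each end-joining gene between meninges and spleen (vertical axis, bars of 1 SE) in all macaque cells, named mature B-like cells, mature B-like cells with the unnamed B clusters added, cycling B-lineage and T/NK-like cells. DCLRE1C was lower in meninges over all cells (-0.98), in T/NK-like cells (-0.99) and with the unnamed B clusters added (-0.96), and XRCC6 was higher in T/NK-like cells (0.59).

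In the mouse library the largest difference among the 6 genes was that of Xrcc6. It had 8.79 times the level in RAG-positive cells that it had in mature B-like cells, and Lig4 had 2.96 times, while the others differed by less than 2-fold. With 1 library there is no test, and the intervals given are exact 95% intervals of the ratio for counting error alone. Of the 6 genes 2 were at least 2-fold higher, a size reached by 7.30% of the 9164 genes with at least 5 CPM in either group. The groups held 3950 RAG-positive, 1363 RAG-positive cycling, 844 cycling B-lineage, 2089 T/NK-like, 309 cycling T/NK-like and 3034 mature B-like cells. Rag1 was found in 96.1% of RAG-positive cells, Ms4a1 in 21.3% of them and in 89.7% of mature B-like cells, and Cd3e in 85.2% and Nkg7 in 71.9% of T/NK-like cells.

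Xrcc6, spanning chromosome 15 from 81987835 to 82040085 on the plus strand in GRCm38 (mm10; GENCODE vM21), was at 510.4 CPM in RAG-positive against 58.1 CPM in mature B-like cells (ratio interval 8.24 to 9.38). Its partner Xrcc5 (chromosome 1, 72307421 to 72394952, plus strand) was at 5.61 against 7.91 CPM (ratio 0.710, interval 0.554 to 0.910). The 2 Ku genes thus differed in opposite directions in this library. In macaque neither passed under trimmed-mean scaling, and the direction of XRCC6 turned when the unnamed B clusters were added. Scaled by library totals, as the mouse ratios are, both macaque genes were higher past the threshold (log2 differences 0.48 for XRCC5 and 0.46 for XRCC6). Xrcc6 overlaps Desi1 on the other strand, and whether counting used strand was not given in the sources used here, so reads of the 2 genes may not be separable. Prkdc (chromosome 16, 15637866 to 15842235, plus strand) was at 11.0 against 16.7 CPM (ratio 0.658, interval 0.554 to 0.782).

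Dclre1c (chromosome 2, 3424131 to 3464130, plus strand) was at 36.5 CPM in RAG-positive against 34.0 CPM in mature B-like cells, and its ratio of 1.07 had an interval across 1 (0.963 to 1.19). Xrcc4 (chromosome 13, 89774027 to 90089608, minus strand) was at 20.1 against 16.5 CPM (ratio 1.22, interval 1.05 to 1.42). Lig4 (chromosome 8, 9969049 to 9977686, minus strand) was at 103.8 against 35.1 CPM (interval 2.71 to 3.24). Higher LIG4 with a PRKDC level below that of mature B-like cells was thus seen in both species, while the lower XRCC4 of macaque was not seen in mouse. Dclre1c overlaps Suv39h2 on the other strand, Prkdc overlaps Gm49511 on its own strand, and Xrcc4 overlaps Gm24498 on its own and Gm4117 and Tmem167 on the other strand, while no annotated gene overlaps Lig4 or Xrcc5.

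After thinning to 1000 UMIs Xrcc6 was found in 38.2% of RAG-positive, 2.30% of T/NK-like and 5.35% of mature B-like mouse cells, and Lig4 in 10.3% (9.40 to 11.3), 0.527% and 3.93%. Unthinned, Xrcc6 was found in 83.9, 17.6 and 24.1% and Lig4 in 37.9, 3.30 and 14.8% of the same groups, with median UMIs of 5270, 8230 and 5428. The mature B-like class was not uniform, since its clusters 1, 2 and 5 had Lig4 at 71.9, 21.8 and 6.37 CPM and Xrcc6 at 136.6, 37.0 and 18.3 CPM. Cluster 1 also held 407 of the RAG-positive cells. The ratios therefore depend on how much of each cluster the class held.

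RAG-positive mouse cells that also had Mki67 UMIs had less Lig4 (73.6 against 103.8 CPM without, ratio 0.709, interval 0.665 to 0.756), less Xrcc6 (285.2 against 510.4 CPM, ratio 0.559, interval 0.542 to 0.576), less Xrcc4 (12.5 against 20.1 CPM, ratio 0.625, interval 0.535 to 0.728) and less Dclre1c (18.6 against 36.5 CPM, ratio 0.510). Prkdc (14.9 against 11.0 CPM, ratio 1.36) and Xrcc5 (9.17 against 5.61 CPM, ratio 1.63) were higher with Mki67. None of the 6 differed by 2-fold. The clusters that held most cells differed, with 24.1 and 19.7% of the cells with Mki67 in early B-like clusters 13 and 9, against 36.4% of those without in early B-like cluster 8 and 30.1% in unnamed cluster 0. Lower LIG4 and higher PRKDC with the cycling gene was the direction seen in macaque early B-like cells, but XRCC6 ran the other way there.

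Mouse cycling B-lineage cells without RAG UMIs had Xrcc6 at 138.0 against 58.1 CPM in mature B-like cells (ratio 2.38, interval 2.21 to 2.56) and Dclre1c at 12.5 against 34.0 CPM (ratio 0.366, interval 0.311 to 0.430). These were the 1 gene at least 2-fold higher, where 12.8% of the 9250 genes compared were, and the 1 at least 2-fold lower, where 14.4% were. The Xrcc6 ratio depends on the mix of the mature B-like class, since its cluster 1 had 136.6 CPM and clusters 2 and 5 had 37.0 and 18.3 CPM. Dclre1c was at 44.2, 33.8 and 20.2 CPM in clusters 1, 2 and 5, above the cycling cells in each. Early B-like clusters 4 and 9 gave 29.3 and 23.2% of the cycling cells. Lig4 was at 39.0 against 35.1 CPM (ratio 1.11, interval 0.995 to 1.25), a level between those of mature B-like cluster 1 (71.9 CPM) and of clusters 2 and 5 (21.8 and 6.37 CPM), so its direction depends on the mix of these clusters. Mouse T/NK-like cells had Lig4 at 4.21 against 35.1 CPM (ratio 0.120, interval 0.0935 to 0.152), Dclre1c at 9.76 against 34.0 CPM (ratio 0.287) and Xrcc6 at 24.0 against 58.1 CPM (ratio 0.413), and Xrcc5 at 16.4 against 7.91 CPM (ratio 2.07, interval 1.69 to 2.55). Of the 6 genes 3 were thus at least 2-fold lower, where 11.4% of 9648 genes were, and 1 at least 2-fold higher, where 15.5% were. This count rests on the mix of the mature B-like class: in its cluster 5 Lig4 was at 6.37 CPM, less than 2-fold above T/NK-like cells, and Xrcc6 at 18.3 CPM was below them. Cycling T/NK-like and other T/NK-like cells differed by less than 2-fold in all 6.

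**Figure D5:**
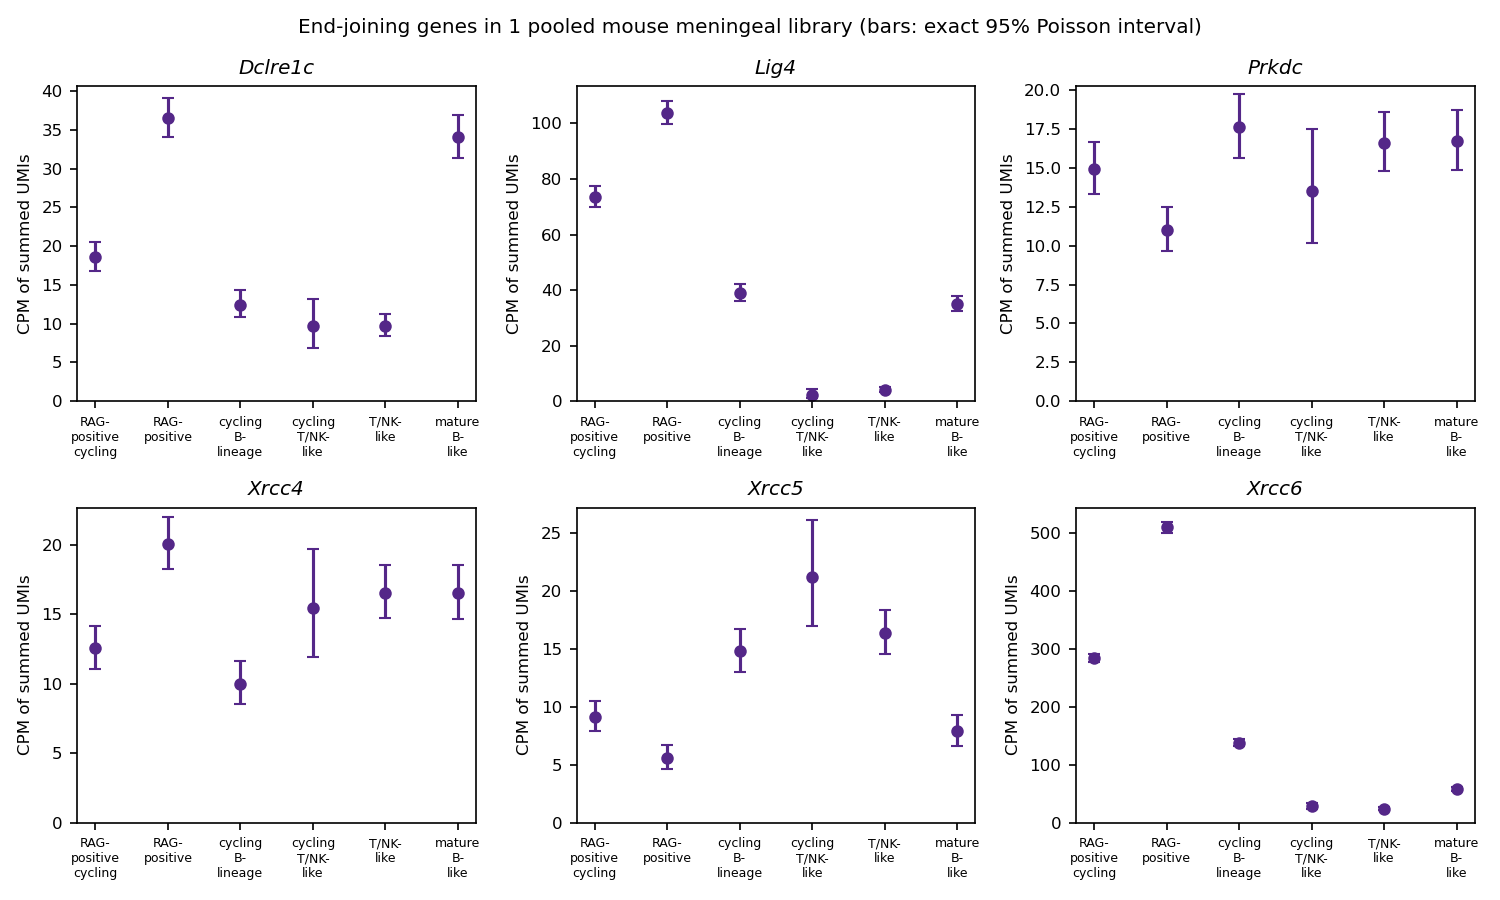
CPM of each end-joining gene (vertical axes, with exact 95% Poisson intervals) in 6 groups of mouse meningeal cells from 1 library, with mature B-like cells last. Xrcc6 was at 510.4 CPM and Lig4 at 103.8 CPM in RAG-positive cells against 58.1 and 35.1 CPM in mature B-like cells.

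Across the 9 macaque groups of the joint fit, each a cell group in 1 tissue, LIG4 ranged most and XRCC5 least. Meningeal RAG-positive cells with MKI67 were left out of this ranking, since channel 2 held only 24 of them. Their mean XRCC5 was 523.5 CPM (channels 501.7 to 545.4), above all 9 groups, so the place of XRCC5 holds for these 9 only. Their mean PRKDC was 488.4 CPM (channels 415.8 to 561.0), which overlapped with cycling B-lineage cells of both tissues. The mean CPM of LIG4 was 75.6 ± 14.2 (SD, n = 2) in cycling B-lineage cells of spleen and 7.68 ± 1.73 in mature B-like cells of meninges, a ratio of 9.85. RAG-positive cells, at 50.9 ± 2.07, and meningeal cycling B-lineage cells, at 43.3 ± 23.2, came next and overlapped. PRKDC was highest in cycling B-lineage cells of spleen (489.8 ± 25.3) and of meninges (470.1 ± 43.5), which overlapped with each other, and lowest in RAG-positive cells (130.8 ± 24.9), a ratio of 3.74. XRCC6 (ratio 2.27) and XRCC5 (ratio 2.12) were highest in cycling B-lineage cells and lowest in mature B-like cells of meninges. Their lowest places overlapped with the next, XRCC6 (206.3) with mature B-like cells of spleen (210.7) and XRCC5 (228.6) with T/NK-like cells of meninges (228.9). DCLRE1C (ratio 2.78) was highest in mature B-like cells of spleen (40.3 ± 8.54) and lowest in meningeal T/NK-like cells (14.5 ± 0.03), and its 7 highest groups overlapped from neighbour to neighbour. XRCC4 (ratio 2.57) was at 58.9 ± 2.09 CPM in meningeal and 58.9 ± 5.06 CPM in spleen mature B-like cells, overlapping with 56.6 ± 6.70 CPM in cycling B-lineage cells of spleen. It was lowest in meningeal T/NK-like cells (23.0 ± 3.26), which overlapped with meningeal cycling T/NK-like cells (23.3 ± 8.20).

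The 6 genes did not move as 1 block over the 18 summed macaque groups and channels. Pearson's r of log2 CPM, which shares libraries among its points and is given as a description, was 0.848 between XRCC5 and XRCC6, 0.810 between XRCC5 and LIG4, 0.761 between XRCC4 and DCLRE1C and 0.708 between XRCC5 and PRKDC. LIG4 and XRCC4, whose proteins form 1 complex, had an r of -0.02, and XRCC6 and DCLRE1C one of -0.43. Genes among the 3 most like each of the 6, of 4043 or 4044 whose mean log2 CPM was at least 5, were CIAO2A (r = 0.934), NEIL1 (0.912) and UBE2G1 (0.907) for LIG4, SUPT16H (0.934) for PRKDC, and SNX5 (0.934), COMMD10 (0.924) and FCRL1 (0.916) for XRCC4. They were HNRNPD (0.973), ATP5PF (0.968) and FKBP3 (0.955) for XRCC5, H2AFZ (0.945), SERBP1 (0.939) and ODC1 (0.936) for XRCC6, and EIF4G3 (0.908), PHF14 (0.883) and SDCCAG8 (0.882) for DCLRE1C.

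The wider repair genes were counted from 5 lists of 65 genes, to be read against the shares of all genes. In RAG-positive against mature B-like meningeal cells 6 of 15 other end-joining and V(D)J genes tested were higher and 0 lower, where 21.2% of all genes were higher and 17.7% lower. The gate used 2 of the 6, RAG1 and RAG2, so their place in the count was fixed by it. The others were DNTT, which adds bases at joints, the polymerase gene POLM (1.92, edgeR adjusted p = 7.62e-12), and HMGB1 (0.78) and HMGB2 (2.29), whose proteins bend DNA for RAG cutting. DNTT was found in 0.0% of the cells of early B-like cluster 4, which held 95.6 and 90.8% of RAG-positive cells. It was found in 35.5% of unnamed cluster 14, which held 8.15% of the RAG-positive cells of channel 2, so the DNTT call does not describe most RAG-positive cells. ATM, the break-signalling kinase, was lower (-2.12, edgeR adjusted p = 3.58e-14), as was NBN (-0.84, edgeR adjusted p = 0.000879). Of the break-signalling list 1 of 13 was higher and 2 lower, of alternative end joining 0 and 1 of 8, of homologous recombination 3 and 2 of 13, and of class switching and mismatch repair 0 and 3 of 7.

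In meningeal cycling B-lineage against mature B-like cells the homologous recombination list, which repairs breaks from a sister copy after replication, had 11 of 13 higher and 1 lower, where 24.8% of all genes were higher and 18.4% lower, with a median log2 difference of 3.06, with BRCA1 (2.74) and RBBP8 (2.70) among them. Alternative end joining had 6 of 8 higher with a median of 1.05, led by LIG1 (3.27) and PARP1 (1.35), and class switching and mismatch repair 5 of 7 with a median of 1.78. The other end-joining and V(D)J genes were divided, with 3 higher and 3 lower of 15 and a median of 0.05, the value over all genes. In spleen the same lists had 11 higher and 2 lower of 13, 5 and 2 of 8, 6 and 1 of 7, and 4 and 5 of 15, where 31.2% of all genes were higher and 32.3% lower. POLM was lower in cycling B-lineage cells of meninges (-1.18, edgeR adjusted p = 0.00226) and of spleen (-1.97, edgeR adjusted p = 5.84e-12), opposite to its direction in RAG-positive cells.

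In T/NK-like against mature B-like cells POLM was lower in meninges (-4.26) and in spleen (-3.39), and PARP1 was lower in both (-2.03 and -1.41). Of the other end-joining and V(D)J list 3 of 15 were higher and 3 lower in meninges, where 30.2% of all genes were higher and 23.1% lower, and 2 and 1 in spleen, where 22.5 and 22.7% were. Between tissues, T/NK-like cells of meninges had lower ATM (-0.59, edgeR adjusted p = 0.000114) with 5 of 13 break-signalling genes lower and 1 higher, where 15.2% of all genes were lower and 19.4% higher (30.9 and 11.2% when scaled by library totals). In mouse RAG-positive against mature B-like cells Rag1, Rag2, Dntt and Polm were the 4 of 13 other end-joining and V(D)J genes at least 2-fold higher, where 7.30% of genes were, and Rag1 and Rag2 had gated the groups.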

How the data were processed

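Single-cell RNA was measured with 10x 3′ chemistry in macaque meninges and spleen (2 channels each) and in 1 pooled mouse meningeal library. The deposited values are raw UMI counts per gene and cell, which the authors made with Cell Ranger according to the notes on processing that the submitters gave, where mm10 is the only build named. Which macaque reference was used was not given in the sources used here. A macaque table holds a gene only if 3 or more cells had it, and genes outside a table entered as 0. The UMI totals were 19018146 and 19763332 in meninges, 20110117 and 21992144 in spleen and 128091376 in mouse.

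The cell filter asked for 300 or more genes and no more than 10% mitochondrial UMIs. Scrublet took out 39 and 39 cells of the meninges channels and 173 of the mouse library. In spleen it marked 0 cells, which was read as a failure of the caller, and nothing was removed. This left 4029 and 4269, 5839 and 6783, and 13267 cells. Clusters came from 2000 variable genes without the 6 genes and the repair lists, 30 components, 15 neighbours and Leiden resolution 1. A name needed at least 3 detected markers, a score of 0.3 and a lead of 0.25, thresholds set after the data were seen. A cluster without a name counted as B-lineage where at least 30% of its cells had UMIs of B cell marker genes, and was added to mature B-like cells in an alternative where at least 90% had MS4A1.

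UMIs were summed per channel and group. Tissues were compared within a group, for groups with at least 50 cells in every channel, by edgeR's quasi-likelihood test (trimmed-mean scaling, filterByExpr, Benjamini-Hochberg adjustment over all genes tested, threshold 0.05). Contrasts between groups and the interaction came from 1 joint fit of 18 sums with at least 30 cells each, with the channel as a block and 7 residual degrees of freedom. The RAG-positive cells with MKI67 were described only. In mouse, ratios have exact 95% intervals from counts, and a 2-fold difference with at least 5 CPM in either group was counted. Both fits were tested on simulated data.

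The genes named are the 6, genes that define or check the groups, the 3 genes most like each (for PRKDC 1 of them, since the others are not reported here), and up to 4 of each list past the threshold, those with the highest mean. Members and lists were chosen with earlier results of these data known. Alternatives were other tools, filters, scalings, gates, resolutions, thinning to 1000 UMIs, the block and leaving out channels. Channel numbers were not taken to pair the tissues.

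Software was edgeR 4.0.16, limma 3.58.1 and DESeq2 1.42.0 in R 4.3.3, and igraph 0.11.9, scanpy 1.11.5, scipy 1.17.1, numpy 2.4.6, anndata 0.12.19, scikit-learn 1.9.0, pandas 2.3.3 and matplotlib 3.10.9 in Python 3.11.15. No sequences of the 6 genes are printed.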

Additional observations from a re-analysis of the deposited data

Results flagged for a closer look

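The tissue difference of XRCC6 was not the same in T/NK-like and mature B-like macaque cells. The interaction term was 0.63 on the log2 scale (edgeR's quasi-likelihood test, adjusted p = 0.00114). In that joint fit, T/NK-like against mature B-like cells had log2 differences of 0.49 in meninges and -0.14 in spleen. In separate fits between tissues, XRCC6 was 1.51-fold higher in meninges among T/NK-like cells, and the log2 difference among named mature B-like cells was 0.03. With the unnamed B clusters added to the mature B-like cells the interaction term was 0.17 (adjusted p = 0.329). After thinning it was 0.47 (adjusted p = 0.128), and when scaled by library totals it was 0.36 (adjusted p = 0.0804). The cause was not tested.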

How the results depend on the processing

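Of 1229 values of the 6 genes recomputed under alternatives, 1096 kept their direction and their side of the threshold, 22 lost a call, 43 gained one, 9 turned round and 59 uncalled values moved or changed sign. Thinning to 1000 UMIs turned LIG4 over all cells (0.0015), LIG4 between tissues in cycling B-lineage cells (0.0788) and DCLRE1C in cycling B-lineage against mature B-like cells of spleen (0.10). Leiden resolution 0.5 turned XRCC4 between tissues in mature B-like cells (-0.42), as did adding the unnamed B clusters (-0.42), which also turned XRCC6 in RAG-positive cells (-0.27) and PRKDC (0.18), XRCC5 (-0.15) and XRCC6 (-0.0036) in meningeal T/NK-like against mature B-like cells.

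The number of the 6 genes past the threshold between tissues in mature B-like cells was 0, and 4 at Leiden resolution 0.5, 4 with unnamed B clusters added, 1 with a crossed block and 0 to 1 without single channels. In cycling B-lineage cells it was 2, and 0 with DESeq2, 0 after thinning and 1 to 2 without single channels. In plasma-like cells it was 0, and 1 without a filter on low counts, 1 with the channel number as a replicate block and 0 to 1 without single channels. In cycling T/NK-like cells it was 0, and 1 with the block and 0 to 1 without single channels. In T/NK-like against mature B-like cells of spleen it was 1, and 3 without a filter, 3 without the low-UMI cluster and 1 to 2 without single channels. In cycling against other T/NK-like cells it was 0 in meninges and 1 without the low-UMI cluster, and 1 in spleen but 0 without the block, 0 after thinning and 0 to 1 without single channels. Scaling by library totals in place of the trimmed mean, chosen after the data were seen, gave 1 of the 6 between tissues in mature B-like cells, 3 in plasma-like cells and 1 in cycling T/NK-like cells, 5 against 3 in RAG-positive against mature B-like cells, and 2 against 0 in meningeal cycling against other T/NK-like cells. The interaction called 1 gene, and 2 without a filter, 2 with the strict cell filter, 2 without the low-UMI cluster, 0 after thinning and 0 with unnamed B clusters added. The mouse Xrcc6 ratio was 9.46 with a gate of 2 UMIs and 9.48 after thinning. The cause of these changes was not tested.

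Deviations of same-numbered channels correlated at -0.12 over all cells, at -0.11 in mature B-like cells and at -0.085 to 0.044 in the other groups. These values gave no sign of pairing, but they cannot decide it, since deviations between channels may be technical. The block changed no other call of the 6 genes. With crossed pairs 4 of the 6 and 7685 genes passed over all cells, and 1 of the 6 and 270 genes in mature B-like cells. All genes past the threshold between tissues ranged over the alternatives from 4355 to 7685 over all cells, 13 to 4677 in mature B-like, 1561 to 3997 in T/NK-like and 390 to 2185 in cycling B-lineage cells. Counts were low for LIG4 in meningeal mature B-like cells, with 14 and 10 UMIs in the channels.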
